A study of Homo sapiens with 6 samples.

Results

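Levels of 10 genes of TNF and NF-kB signalling and its feedback were followed in Mum-2b cells depleted of NELFCD: TNF, TRAF1, TNFAIP3, TNFAIP2, NFKBIA, NFKB1, NFKB2, RELB, BIRC3 and ICAM1. They were taken by gene symbol from a count table of 58735 genes. Each symbol had 1 row, and all 10 were among the 14844 genes tested. Mum-2b is a human cell line labelled as uveal melanoma. The knockdown group (n = 3) carried a short hairpin RNA against NELFCD, with 1 hairpin number in its titles, and the control group (n = 3) was labelled WT with library names NC1 to NC3. The protein made from NELFCD belongs to the negative elongation factor complex, which keeps RNA polymerase II paused just downstream of start sites. The labels do not say whether libraries of 1 group came from separate cultures, so the p-values measure the spread between these libraries, which may be technical.

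TNF is a secreted cytokine. When it binds its receptor, the IKK kinases mark the inhibitor IkBa (gene NFKBIA) for destruction. NF-kB dimers held by IkBa then enter the nucleus. NF-kB dimers as a family are built from the RELA, RELB, REL, NFKB1 and NFKB2 proteins. Among the genes they switch on are their own brakes, including NFKBIA and TNFAIP3 (A20), their own subunits NFKB2 and RELB, survival genes such as BIRC3 and TRAF1, and the adhesion receptor ICAM1. Many of these genes respond quickly to a signal, and TNF is a known example of a gene with paused polymerase near its start.

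Depth was 14306733 to 16656630 counts per library. NELFCD had 20.6, 37.4 and 40.2 CPM (counts scaled to library size) in knockdown replicates 1 to 3, against 65.3, 88.2 and 83.4 CPM in control replicates 1 to 3. All knockdown libraries lay below all controls, with 41.4% of the control mean left (exact two-sided permutation p = 0.1, the smallest that 3 against 3 libraries allow). Replicate 1 of both groups stood apart from replicates 2 and 3, so each knockdown library was also set against the control of the same number. The labels do not state this pairing, and it rests on replicate 1. The difference of replicate 2 from 3 did not correlate between the groups (-0.00408), so pairs 2 and 3 are matched by number only. Of 10 melanocyte genes only MITF, MLANA and TYRP1 averaged at least 1 CPM, and OCA2 was at 0 in every library. Their summed level was 8.07 to 18.7 CPM in knockdowns and 7.91 to 10.9 CPM in controls. Immune markers summed to 0.331 to 1.16 CPM in knockdowns and 0.957 to 1.41 CPM in controls, and fibroblast markers to 0.726 to 1.57 and 1.23 to 2.26 CPM. Endothelial markers summed to 54.2 to 58 CPM in knockdowns and 125 to 165 CPM in controls, with CDH5 alone at 50.5 to 56.4 CPM and 123 to 158 CPM; its part in the results below was not tested.

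RefSeq promoter windows (GRCh38.p14) were available for 9 of the 10 genes and are shown here because NF-kB dimers bind a 10-base kappa-B motif in many such promoters. The windows hold the 250 bases before an annotated RefSeq start, which can differ from the gene start in the count table. The NFKB2 and ICAM1 windows shown lie wholly inside the gene spans given below. The TNFAIP3 matches also lie inside its span. The kappa-B consensus was searched on both strands, and overlapping matches were each counted. It was found in 6 of 14 windows, belonging to TNFAIP3, NFKBIA, NFKB1, NFKB2 and BIRC3, and in 9.96% of all 35116 windows. By gene, 5 of 9 held a match in any window, against 11.8% of 27305 genes, without matching for the number of windows per gene. The 10 genes were chosen for their place in this pathway, so the higher share is not a result of these libraries. A match is a description of letters and not of a bound site. Likewise, a window without a match may still hold a site that departs from the consensus. The ICAM1 window holds tggaaattcc, which was not counted as a match. The windows of 4 genes with matches (for NFKB2, the one of its 3 starts with the most matches) and of the pair with the largest fall and the only rise in the knockdown, TRAF1 and ICAM1, read as follows from 5′ to 3′ on the gene's strand, with matches in capitals.

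TNFAIP3, chr6:137867009-137867258, plus strand: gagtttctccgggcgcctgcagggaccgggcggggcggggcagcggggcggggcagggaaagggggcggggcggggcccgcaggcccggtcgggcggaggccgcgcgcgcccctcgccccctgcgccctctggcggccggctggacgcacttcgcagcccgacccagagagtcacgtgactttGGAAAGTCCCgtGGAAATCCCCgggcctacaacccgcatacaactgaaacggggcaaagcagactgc
NFKBIA, chr14:35404750-35404999, minus strand: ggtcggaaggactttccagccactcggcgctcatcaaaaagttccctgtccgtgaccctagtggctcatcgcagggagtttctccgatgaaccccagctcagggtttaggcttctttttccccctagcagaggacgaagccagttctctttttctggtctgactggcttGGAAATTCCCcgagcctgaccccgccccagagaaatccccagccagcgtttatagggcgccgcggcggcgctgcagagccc
NFKB2, chr10:102394328-102394577, plus strand: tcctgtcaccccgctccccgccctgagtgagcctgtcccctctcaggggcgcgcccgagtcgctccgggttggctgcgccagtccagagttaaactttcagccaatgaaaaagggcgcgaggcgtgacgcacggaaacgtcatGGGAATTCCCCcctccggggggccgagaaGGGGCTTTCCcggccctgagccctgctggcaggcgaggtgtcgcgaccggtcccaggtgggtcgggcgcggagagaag
BIRC3, chr11:102317234-102317483, plus strand: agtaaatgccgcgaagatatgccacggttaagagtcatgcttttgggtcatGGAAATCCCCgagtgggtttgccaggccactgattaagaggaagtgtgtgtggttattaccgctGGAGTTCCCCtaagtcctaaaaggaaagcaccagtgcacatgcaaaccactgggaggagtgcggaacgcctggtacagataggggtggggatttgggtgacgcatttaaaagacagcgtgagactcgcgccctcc
TRAF1, chr9:120929172-120929421, minus strand: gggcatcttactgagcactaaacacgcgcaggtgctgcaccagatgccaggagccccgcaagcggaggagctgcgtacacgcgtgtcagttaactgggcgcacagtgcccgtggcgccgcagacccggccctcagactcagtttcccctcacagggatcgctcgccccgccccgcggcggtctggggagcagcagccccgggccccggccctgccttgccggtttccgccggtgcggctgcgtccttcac
ICAM1, chr19:10270870-10271119, plus strand: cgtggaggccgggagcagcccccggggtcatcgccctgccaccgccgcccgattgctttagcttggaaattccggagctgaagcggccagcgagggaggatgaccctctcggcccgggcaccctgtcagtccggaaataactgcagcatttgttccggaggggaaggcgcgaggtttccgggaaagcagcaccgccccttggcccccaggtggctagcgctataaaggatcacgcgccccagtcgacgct

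TNFAIP3 has its 2 matches 67 and 55 bases before the RefSeq start, and NFKBIA has 1 match 81 bases before its own. BIRC3 has matches 199 and 135 bases before its start. In the NFKB2 window 2 of the 3 matches overlap by all but 1 base, and NFKB1 has 1 match 49 bases before its first annotated start. The TRAF1 window shown is the first of 3, and none of the 3 held a match, nor did those of TNF, TNFAIP2 and ICAM1.

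With the replicate number in the model, TRAF1, TNF and TNFAIP3 fell and ICAM1 rose in the knockdown. TRAF1 (chr9:120902393-120929173), an adaptor of TNF-family receptors, had 16.4, 2.6 and 4.58 CPM in knockdown replicates 1 to 3, against 62.1, 6.29 and 7.43 CPM in control replicates 1 to 3. Knockdown replicate 1 lay above control replicates 2 and 3, so the groups overlapped, yet each knockdown library was below the control of its own number. It was left at 26.4%, 41.3% and 61.7% of control in pairs 1 to 3, with 95% counting intervals of 22.9% to 30.5%, 28% to 60.1% and 45% to 83.9%. Its log2 fold change was -1.449 ± 0.214 (SE; adjusted p = 0.0051 from a quasi-likelihood edgeR fit with the replicate block, Benjamini-Hochberg over all tested genes). Without the block its adjusted p was 1.

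TNF (chr6:31575567-31578336), the ligand itself, was among the scarcest of the 10, with 46 to 65 counts per knockdown library and 81 to 125 per control library. It stood at 4.31, 3.81 and 3.15 CPM in knockdown replicates 1 to 3, against 8.54, 6.29 and 5.06 CPM in control replicates 1 to 3. It was the only one of the 10 whose groups did not overlap, with every knockdown library below every control. The means were 3.75 ± 0.582 CPM in knockdowns and 6.63 ± 1.77 CPM in controls (SD, n = 3 each). The log2 fold change was -0.805 ± 0.178 (SE; adjusted p = 0.021 with the replicate block, edgeR), and -0.818 without the block (adjusted p = 0.68).

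TNFAIP3 (chr6:137867188-137883312), the ubiquitin-editing brake A20, had 28.8, 14.4 and 14.7 CPM in knockdown replicates 1 to 3, against 53.7, 18.7 and 17.9 CPM in control replicates 1 to 3. Each knockdown library was below the control of its number, and replicate 1 was the highest of its group on both sides. The log2 fold change was -0.549 ± 0.13 (SE; adjusted p = 0.026 with the replicate block, edgeR; 1 without it). Of its exon bases 1.88% are shared with an antisense gene.

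ICAM1 (chr19:10270835-10286615), the cell-surface ligand for leukocyte integrins, moved the other way. It had 522, 52 and 52 CPM in knockdown replicates 1 to 3, against 367, 39.3 and 43.8 CPM in control replicates 1 to 3. The knockdown was higher in each pair, at 142%, 132% and 119% of control, while replicate 1 of either group was far above the other 4 libraries. The log2 fold change was 0.396 ± 0.07 (SE; adjusted p = 0.0093 with the replicate block, edgeR; 1 without it). Of the ICAM1 exon bases 23.6% are shared with antisense genes, whose own rows held 25 counts over all 6 libraries.

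The remaining feedback and survival genes did not pass with the block and all 3 pairs. NFKBIA (chr14:35401511-35404749), the inhibitor that retains NF-kB in the cytoplasm, had 154, 65.5 and 65.4 CPM in knockdown replicates 1 to 3, against 229, 73.6 and 67.7 CPM in control replicates 1 to 3. It stood at 67%, 89% and 96.6% of control in pairs 1 to 3, and the blocked log2 fold change was -0.275 ± 0.0984 (SE; adjusted p = 0.098, edgeR). It was called in 3 of the 12 fits with a replicate term or without replicate 1, namely with every gene kept (0.0032), without pair 3 (0.017) and with replicate 1 as a batch term (0.045). TNFAIP2 (chr14:103123442-103137439), a TNF-inducible gene tied to membrane protrusions, had 135, 82 and 91.3 CPM in knockdown replicates 1 to 3, against 267, 92.8 and 92.1 CPM in control replicates 1 to 3. It was at 50.6% of control in pair 1 and at 88.4% and 99.1% in pairs 2 and 3, and the blocked log2 fold change of -0.402 ± 0.193 (SE) had an adjusted p of 0.23 (edgeR; 0.00026 without pair 3, its 1 call of 12). BIRC3 (chr11:102317450-102339403), the ubiquitin ligase cIAP2, had 164, 42.4 and 41.2 CPM in knockdown replicates 1 to 3, against 182, 50.3 and 48.4 CPM in control replicates 1 to 3. Its ratio was alike in the 3 pairs, at 89.9%, 84.4% and 85.1% of control, with a blocked log2 fold change of -0.207 ± 0.0642 (SE; adjusted p = 0.067, edgeR). It was called in 3 of the 12 fits, without pair 1 (0.006), with replicate 1 as a batch term (0.028) and in replicates 2 and 3 alone (0.011).

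The 3 genes for NF-kB subunits differed least between the groups. NFKB1 (chr4:102501329-102617302), which encodes p105 and its product p50, had 170, 140 and 142 CPM in knockdown replicates 1 to 3, against 184, 152 and 151 CPM in control replicates 1 to 3 (log2 fold change -0.107 ± 0.0578 SE). NFKB2 (chr10:102394110-102402529), which encodes p100 and p52 of the non-canonical branch, had 332, 78.2 and 82.2 CPM in knockdowns, against 338, 85.3 and 87.1 CPM in controls (-0.075 ± 0.0598 SE). RELB (chr19:45001430-45038198), the partner of p52, had 84.3, 25.3 and 24.9 CPM in knockdowns, against 96.8, 24.7 and 27 CPM in controls (-0.104 ± 0.0786 SE). With the block, edgeR gave these 3 an adjusted p of 0.25 (NFKB1), 0.44 (NFKB2) and 0.42 (RELB), which does not show that they were equal between the groups.

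**Figure D1:**
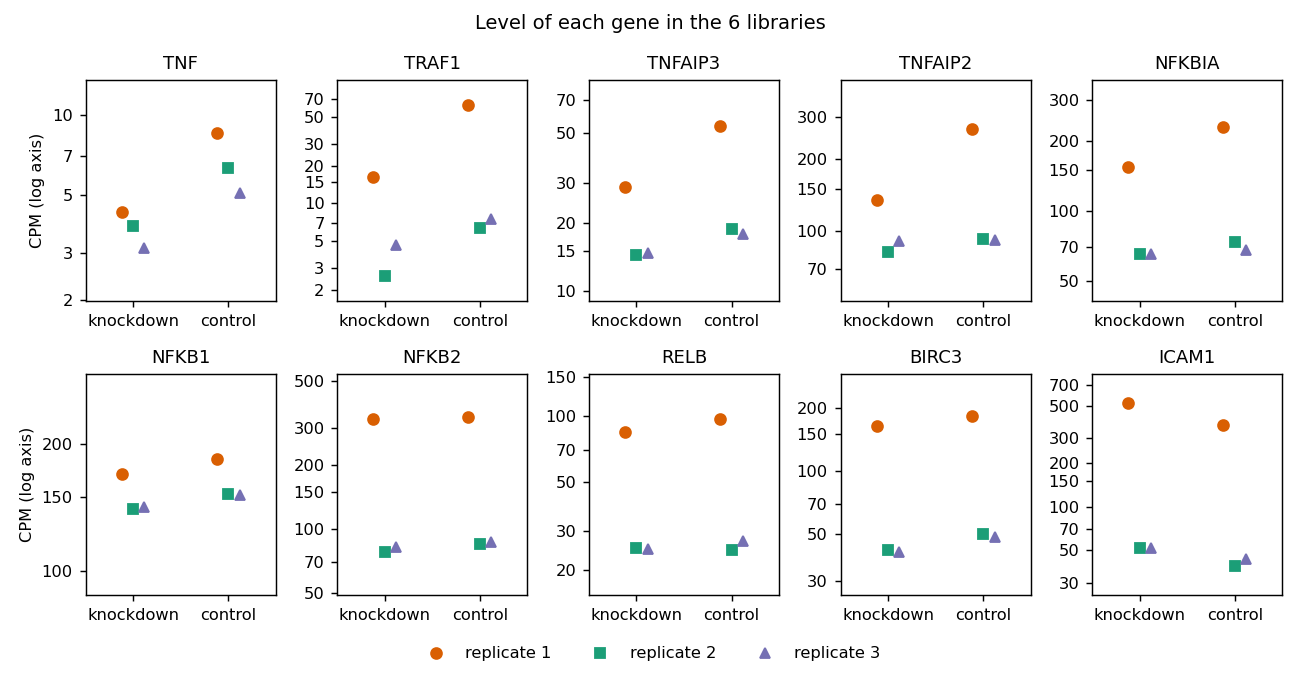
CPM (log axis, one scale per gene) of each of the 10 genes in the 3 knockdown and 3 control libraries, each point 1 library, with colour and shape for the replicate number. Replicate 1 is the highest library of its group for every gene, and only for TNF do all knockdown points lie below all control points.

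Of the 10 genes, 3 fell and 1 rose with the replicate block, where 8.01% of all tested genes fell and 5.48% rose (with upper-quartile scaling the share of calls that were rises moved to 54.9%, from 40.6%, and the 4 calls stood). Without the block edgeR called 0 of the 10 in either direction, as it called 0% of all genes (954 genes had an unadjusted p under 0.05), and TNF alone among the 10 had an unadjusted p under 0.05. DESeq2, limma-voom and limma on log2 FPKM without the block called 0 of the 10 as well, though DESeq2 gave TRAF1 no adjusted p there. By pairs, 8 of 10 were lower in all 3 pairs, against 26.9% of all tested genes, and 1 (ICAM1) was higher in all 3, against 25.8%. RELB was the exception, at 102% of control in pair 2. Without regard to pairs, 1 of 10 (TNF) had groups that did not overlap with the knockdown lower, against 7.34% of all genes, and 0 of 10 with the knockdown higher, against 7.63%. The median blocked log2 fold change was -0.24 over the 10 and 0.00 over all tested genes. TRAF1 and TNFAIP3 were called in each of 12 fits, namely all those with a replicate term and that on replicates 2 and 3 alone. TNF and ICAM1 lost theirs without pair 2 (adjusted p = 0.072 and 0.067 in edgeR's blocked fit). In DESeq2 with the block TNF was called only at the threshold (adjusted p = 0.05 after rounding). In bulk RNA, fewer cells that express a gene and less of its RNA per cell cannot be told apart.

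**Figure D2:**
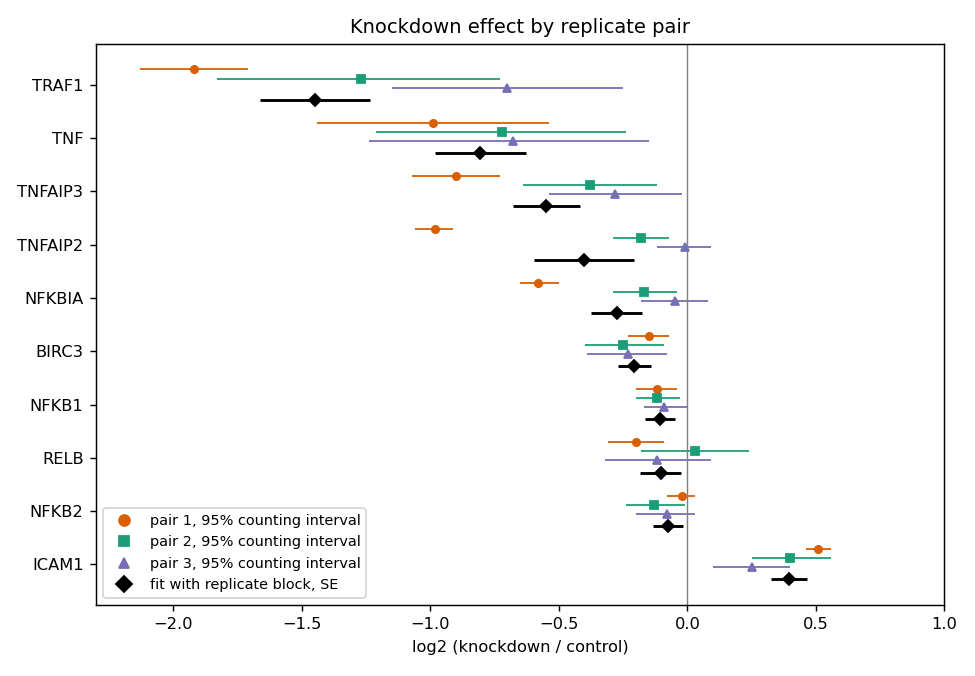
Log2 ratio of knockdown over control for each gene by replicate pair, with 95% counting intervals (coloured points), and the estimate of the fit with the replicate block with its SE (black diamonds). TRAF1, TNF and TNFAIP3 lie left of 0 in all pairs and ICAM1 right of it, while TNFAIP2 and NFKBIA lie far left in pair 1 only.

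The effect of the knockdown differed between pair 1 and pairs 2 and 3 for 4 of the 10 genes. An interaction term in edgeR's fit over all genes was negative for TNFAIP2 (-0.887 ± 0.084 SE on the log2 scale, adjusted p = 1.3e-14), NFKBIA (-0.470 ± 0.0872 SE, adjusted p = 2.7e-05), TRAF1 (-0.959 ± 0.248 SE, adjusted p = 0.0037) and TNFAIP3 (-0.569 ± 0.167 SE, adjusted p = 0.012). These genes were thus further below control in pair 1, where control replicate 1 held their highest level. Control replicate 1 also held the highest level of TNF, NFKB1, NFKB2, RELB and BIRC3, which had no interaction call. Among all tested genes 7.96% had a negative and 5.06% a positive interaction call. The other 6 genes did not pass, with estimates of -0.293 (TNF) to 0.188 (ICAM1). The error of this test comes from the difference between replicates 2 and 3 alone. NELFCD was also lower in pair 1, at 31.5% of control, against 42.4% and 48.2% in pairs 2 and 3 (interaction -0.519 ± 0.131 SE, adjusted p = 0.0029), and the part of this in the 4 genes' difference was not tested. DESeq2 called 2 of the 4, NFKBIA and TNFAIP2.

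In replicates 2 and 3 alone, 4 genes fell and 1 rose. These were TRAF1 (log2 fold change -0.953), TNF (-0.695), TNFAIP3 (-0.330) and BIRC3 (-0.238), with ICAM1 at 0.320, and their edgeR adjusted p ran from 0.00052 for ICAM1 to 0.025 for TNFAIP3. Over all 14836 genes tested there, 13.7% fell and 11.7% rose. With 2 libraries per group, these p-values rest on the spread between replicates 2 and 3, which may be technical. NFKBIA and TNFAIP2 stood at -0.109 and -0.097 in these replicates (adjusted p = 0.21 and 0.22).

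All 10 genes were higher in replicate 1 than in replicates 2 and 3, in a fit with the group as a term, where 31.6% of all tested genes were higher and 30.2% lower. ICAM1 differed most: its replicate 1 was 10 times the mean of replicates 2 and 3 in knockdowns and 8.83 times in controls (log2 difference 3.238 ± 0.0628 SE, adjusted p = 4.3e-12, edgeR). TRAF1 was 4.57 times higher in knockdown replicate 1 and 9.06 times in control replicate 1. NFKB2, BIRC3 and RELB were 4.14, 3.92 and 3.36 times higher in knockdowns and 3.92, 3.7 and 3.75 times higher in controls. NFKB1 and TNF shifted least, by 1.2 and 1.24 times in knockdowns and 1.22 and 1.51 times in controls (log2 differences 0.278 ± 0.0534 and 0.469 ± 0.19 SE). TNF had an adjusted p of 0.047 (edgeR), which passed the threshold in 4 of the 11 versions of this fit (0.029 to 0.39 over them), and TNFAIP2 (adjusted p = 0.0095) missed it when every gene was kept (0.088). The labels say nothing of how replicate 1 differed, and 2 RNA extraction kits are named without saying which library used which, so kit, day and culture cannot be told apart here. For 9 of the 10, all but TNF, the estimated difference between replicates was larger in size than that between the groups.

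Scaled by gene length, the deposited FPKM values place the 10 genes in an order. In the 4 libraries of replicates 2 and 3 NFKBIA was highest (mean 28.8, range 27.5 to 31.3 FPKM), followed by NFKB1 (23.4, 22.3 to 24.4). NFKB2 (18.6, 17.4 to 19.5) and TNFAIP2 (17.9, 16.3 to 18.6) overlapped and could not be ordered. ICAM1 (12.7), RELB (8.41) and BIRC3 (6.08) came next without overlap. TNFAIP3 (3.26, 2.85 to 3.74) and TNF (2.74, 1.87 to 3.78) overlapped, and TRAF1 was lowest (0.813, 0.403 to 1.16). In replicate 1 the order changed, and ICAM1 came first at 136 FPKM in the knockdown and 97.4 FPKM in the control. NFKB1 there was 26.1 FPKM in the knockdown and 29 FPKM in the control, below NFKB2 at 71.4 and 74.1 FPKM.

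**Figure D3:**
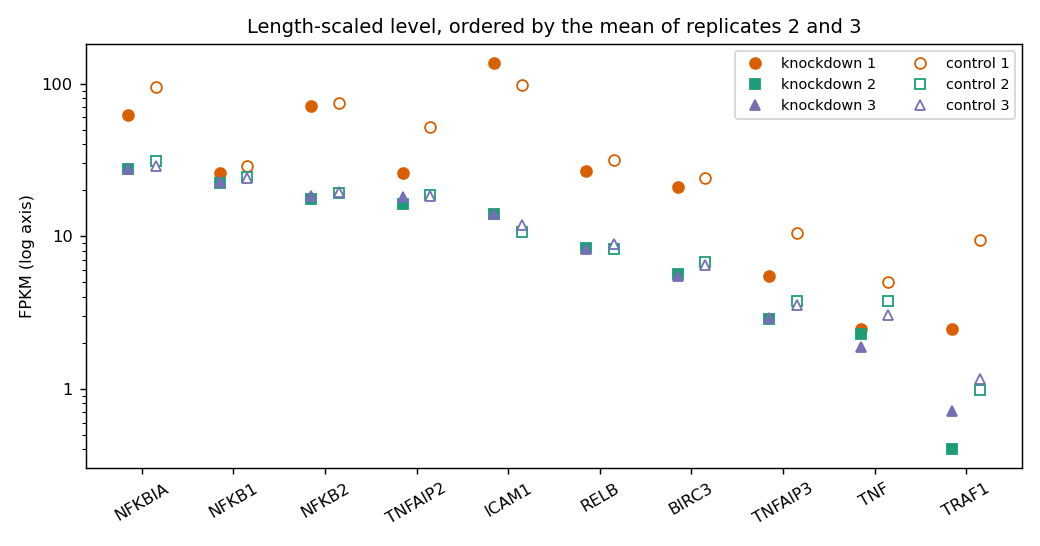
FPKM (log axis) of the 10 genes in each library, with filled symbols for knockdowns and open symbols for controls, ordered from left to right by the mean of replicates 2 and 3. NFKBIA leads in replicates 2 and 3, and ICAM1 leads in replicate 1 at 136 FPKM in the knockdown.

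Further genes of the pathway were read from 4 lists with 78 genes, none of which edgeR called without the block. With the block, the shares to read each count against are the 5.48% of all tested genes that rose and the 8.01% that fell. Among 18 tested genes of the TNF receptors and the receptor complex 1 rose and 0 fell with the replicate block (median log2 fold change -0.06), a share near that of all genes. The rise was CFLAR, the caspase-8 decoy FLIP, with 96.6, 58.6 and 62.6 CPM in knockdown replicates 1 to 3 and 87, 48 and 46.5 CPM in control replicates 1 to 3 (log2 fold change 0.286 ± 0.0747 SE, adjusted p = 0.038, edgeR), and 12% of its exon bases are shared with other genes. Its call was lost without pair 2 or 3 (adjusted p = 0.17 and 0.28, edgeR) and in DESeq2 with the block (0.12). The receptor TNFRSF1A, which binds TNF, was at 293 ± 4.74 CPM in knockdowns and 283 ± 6.46 CPM in controls (SD, n = 3 each), a log2 fold change of 0.050 with an adjusted p of 0.59. TNFRSF1B, the other TNF receptor, had 0 CPM in every library.

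Of 13 genes for IKK and for NF-kB subunits and inhibitors 0 rose and 1 fell (median 0.02), again near the share of all genes. That was MAP3K14, the kinase NIK of the non-canonical branch, with 27.3, 39.4 and 38.2 CPM in knockdown replicates 1 to 3 and 38.3, 49.3 and 56.1 CPM in control replicates 1 to 3 (-0.454 ± 0.0798 SE, adjusted p = 0.0092, edgeR). Of its exon bases 12.3% are shared with an antisense gene. RELA, the p65 subunit, stood at -0.004 (adjusted p = 0.98).

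Of 10 tested genes among the other NF-kB feedback genes 0 rose and 3 fell (median -0.18), all 3 regulators of ubiquitin signalling. N4BP1 fell by 0.392 on the log2 scale (adjusted p = 0.0099), the deubiquitinase OTUD7B by 0.330 (adjusted p = 0.026) and the A20-binding protein TNIP1 by 0.277 (adjusted p = 0.018, edgeR's blocked fit for each). TNIP1 had 591, 125 and 115 CPM in knockdown replicates 1 to 3 and 728, 144 and 145 CPM in control replicates 1 to 3, so that it shared the high replicate 1 of its partner TNFAIP3. Without pair 2 none of the 3 was called (adjusted p = 0.067 to 0.098, edgeR), and without pair 3 OTUD7B and TNIP1 were not (0.099 and 0.16). DESeq2 with the block did not call OTUD7B (0.074). TAX1BP1, an adaptor of A20, stood at -0.081 (adjusted p = 0.43).

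Of 22 tested genes among the other NF-kB target genes 3 rose and 5 fell (median -0.25). The rises were the chemokines CXCL8 and CXCL1 and the cytokine IL1A, and the falls were TNFRSF9, PLAU, SDC4, IRF1 and LIF. CXCL8 had 123, 20.9 and 24.4 CPM in knockdown replicates 1 to 3 and 91.4, 12.4 and 10.6 CPM in control replicates 1 to 3, higher in each pair (0.732 ± 0.131 SE, adjusted p = 0.0096, edgeR). TNFRSF9 (4-1BB), a TNF-family receptor that binds TRAF1, had 20.1, 1.15 and 1.98 CPM in knockdowns and 28.2, 3.6 and 3.5 CPM in controls, lower in each pair (-0.782 ± 0.205 SE, adjusted p = 0.038, edgeR; 0.09 without pair 2 and 0.054 above a floor of 5 CPM). The urokinase gene PLAU was at 319 ± 7.19 CPM in knockdowns and 533 ± 46.2 CPM in controls (SD, n = 3 each; blocked log2 fold change -0.737, adjusted p = 0.00067), and 31.1% of its exon bases are shared with an antisense gene. SOD2, the mitochondrial superoxide dismutase, had 399, 92.9 and 91.1 CPM in knockdowns and 930, 82.9 and 81.5 CPM in controls, and did not pass (-0.326 ± 0.337 SE, adjusted p = 0.59). In replicate 1 against replicates 2 and 3, 18 of the 22 target genes were higher and 1 lower, and 9 of the 10 feedback genes were higher and 0 lower (medians 1.32 and 0.54). Of the 18 receptor-complex genes 7 were higher and 5 lower, and of the 13 IKK and subunit genes 6 were higher and 3 lower (medians -0.05 and 0.13). Over all tested genes 31.6% were higher and 30.2% lower, with a median of 0.03.

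**Figure D4:**
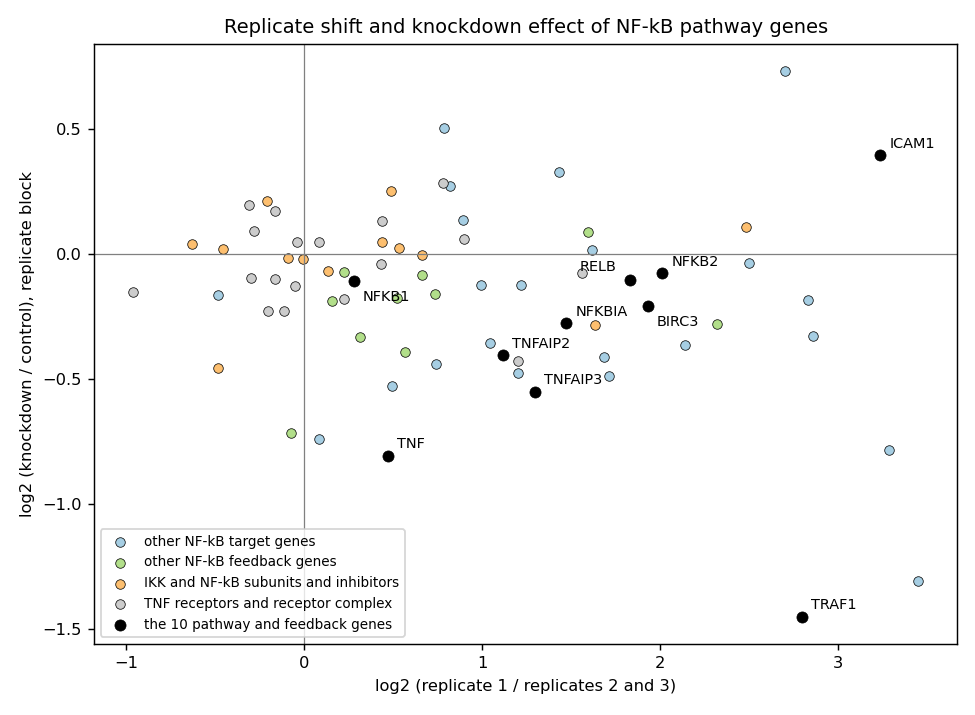
Log2 difference of replicate 1 from replicates 2 and 3 (horizontal) against the blocked log2 fold change of knockdown over control (vertical), for the 10 genes (black, named) and the tested genes of 4 pathway lists (colours). All 10 genes lie right of 0, and ICAM1 (0.396) is the only one of them above 0 on the vertical axis.

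The genes whose profile over the 6 libraries was most like the mean profile of the 10 were ITGA2, ZSWIM8, DHRS7, PHLDA1 and HELZ2. Likeness was the root mean square distance of centred log2 CPM, which was 0.0513 for ITGA2 and 0.0793 for HELZ2 among 10040 protein-coding genes outside the lists. The mean profile stood at 0.81, -0.68 and -0.61 in knockdown replicates 1 to 3 and 1.33, -0.42 and -0.42 in control replicates 1 to 3. ITGA2, the integrin alpha-2 chain, had 174, 63.1 and 65.6 CPM in knockdowns and 272, 72.8 and 78.8 CPM in controls. The likeness rests mainly on the distance of replicate 1 from the other libraries, which the mean profile and each of these genes share.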

How the data were processed

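Messenger RNA was sequenced in 6 libraries, 3 per group. The authors deposited raw counts per gene and FPKM values, per the file headers, and coordinates are those of hg38, a build named in the submitters' processing notes. Which program aligned or counted reads, and whether strand was used, is not given in the sources used here. Each deposited FPKM value equalled the count divided by gene length and by 1 constant per library (0.9816 to 1.073 times its total counts). Gene starts and ends equalled those of GENCODE release 29 for 58724 of 58735 genes.

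Counts were tested across all genes with edgeR 4.0.16 (R 4.3.3, limma 3.58.1, DESeq2 1.42.0): filterByExpr, TMM scaling (factors 0.9894 to 1.034), robust quasi-likelihood F-tests, Benjamini-Hochberg adjustment and a threshold of 0.05. SEs were taken from the log2 fold change and its F statistic. The planned fit had no replicate term. Deviations of same-numbered libraries from their group means correlated at 0.864, 0.697 and 0.685 for replicates 1, 2 and 3. The shift of replicate 1 alone can give the values for replicates 2 and 3, since it moves the group means. The fit with the replicate block stands beside the planned one. That pairing came from the data, and rests on replicate 1 (replicate 2 minus 3 between groups, -0.00408). Variation between libraries (edgeR's common BCV) was 32.6% without and 8.17% with the block. Further fits set replicate 1 against replicates 2 and 3 and tested its interaction with the group. CPM used TMM-scaled totals. Counting intervals (95%, exact binomial on the pair's counts) cover counting error only, since no molecular identifiers are given and reads may be copies of one molecule. A symbol with 2 rows (SOD2) was read from the row with more counts. Profiles used log2(CPM + 0.5), and the FPKM alternative log2(FPKM + 1).

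The genes and lists were chosen with earlier results of these data known. All 10 genes were named; from each list, up to 3 genes called with the block at 1 CPM or more with the largest fold changes, the most expressed one not called, and 5 genes of like profile at 5 CPM or more. The other called target genes and TNFRSF1B were named after their values were seen.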

Additional observations from a re-analysis of the deposited data

Results flagged for a closer look

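The knockdown effect on 4 of the 10 genes differed between replicate pair 1 and pairs 2 and 3, by an interaction test over all genes in edgeR. The difference on the log2 scale was -0.89 for TNFAIP2, -0.96 for TRAF1, -0.57 for TNFAIP3 and -0.47 for NFKBIA, each further below control in pair 1. By pair, TNFAIP2 stood at -0.98, -0.18 and -0.01, TRAF1 at -1.92, -1.27 and -0.70, TNFAIP3 at -0.90, -0.38 and -0.28 and NFKBIA at -0.58, -0.17 and -0.05. Pair 1 is a single library per group, and the test takes its error from replicates 2 and 3.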

How the results depend on the processing

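Whether any of the 10 genes was called rested on the replicate number. Without it, 0 of the 10 and 0 of 14844 genes were called by edgeR, and likewise under RLE or upper-quartile scaling, other filters, limma-voom, limma on FPKM and with each library left out, while DESeq2 called 161 genes and 0 of the 10. TRAF1 had no adjusted p in that DESeq2 fit. With the replicate block edgeR called 2002 genes and 4 of the 10. The block gave 2040 and 4 with RLE scaling, 2184 and 4 with upper-quartile scaling, 2888 and 5 with every gene kept, 1807 and 4 above a floor of 5 CPM, 1358 and 4 in DESeq2 and 2110 and 4 in limma-voom. It gave 4090 genes and 5 of the 10 without pair 1, 932 and 2 without pair 2 and 1760 and 6 without pair 3. Replicate 1 as a batch term gave 3117 and 6, and replicates 2 and 3 alone gave 3758 and 5. The interaction with replicate 1 was called for 598 genes and 2 of the 10 in DESeq2, against 1932 and 4 in edgeR. Replicate 1 against replicates 2 and 3 called 8 to 10 of the 10 over all versions of that fit, including those without control or knockdown replicate 1, which were chosen after the data were seen.

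Without the block, leaving out 1 library moved the log2 fold change from -2.82 to 0.20 for TRAF1, -1.05 to 0.077 for TNFAIP3, -0.81 to 0.15 for TNFAIP2, -0.92 to 0.42 for NFKBIA, -1.09 to 0.93 for NFKB2, -0.99 to 0.79 for RELB, -1.17 to 0.74 for BIRC3 and -1.54 to 2.33 for ICAM1. For the other named genes the range was -0.002 to 0.62 for CFLAR, -0.23 to 0.29 for RELA, -1.50 to 0.94 for TNIP1, -0.36 to 0.16 for TAX1BP1, -2.92 to 1.12 for TNFRSF9, -0.76 to 2.29 for CXCL8 and -1.995 to 1.24 for SOD2. The ends of the ranges above 0 for genes that were below it, and below 0 for ICAM1, CFLAR and CXCL8, came from leaving out replicate 1 of 1 group, which leaves that replicate in the other group alone. Leaving out knockdown replicate 2 or 3 also turned the sign, to 0.280 and 0.261 for NFKB2, 0.137 and 0.137 for RELB, 0.125 and 0.129 for BIRC3, 0.043 and 0.048 for RELA, 0.054 and 0.069 for TNIP1 and 0.073 and 0.019 for TAX1BP1. NFKB2 stood at 0.014 with upper-quartile scaling and no block. RELA stood at 0.016 with that scaling, 0.044 with it and the block, 0.011 with the block at 5 CPM, 0.097 with the block without pair 1 and 0.096 in replicates 2 and 3 alone. SOD2 stood at 0.161 with the block without pair 1 and at 0.162 in replicates 2 and 3 alone (adjusted p = 0.012 and 0.022, edgeR). The cause of these turns was not tested. The low counts of TNF (46 to 125) and TRAF1 (43 to 909) limit how closely their changes are known.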

Other observations

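The test of pair 1 against pairs 2 and 3 was also read for the pathway lists. It sets 1 library per group against the spread of replicates 2 and 3 alone, so its p-values do not cover the spread of pair 1. Of 22 tested target genes, 8 had a more negative and 3 a more positive knockdown effect in pair 1 by edgeR's interaction test, beside 2 and 0 of 10 feedback genes, 4 and 0 of 18 receptor-complex genes and 1 and 3 of 13 IKK and subunit genes. Over all tested genes 7.96% were more negative and 5.06% more positive. SOD2 had an interaction of -1.384 ± 0.0687 (SE) on the log2 scale (adjusted p = 1.6e-30). Of its exon bases 6.93% are shared with other annotated genes, including WTAP on the opposite strand. Its level in knockdown replicate 1 (399 CPM) was below that in control replicate 1 (930 CPM) while replicates 2 and 3 of the knockdown (92.9 and 91.1 CPM) lay above those of the control (82.9 and 81.5 CPM). RELA had an interaction of -0.298 ± 0.0813 (SE; adjusted p = 0.0063), and CXCL8 one of -0.544 ± 0.139 (SE; adjusted p = 0.0031). TNFRSF9 was higher in replicate 1 by 3.286 ± 0.18 (SE) on the log2 scale, about as much as ICAM1 (3.238).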
